A study of Mus musculus with 12 samples.

Results

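The dual-specificity MAP kinase phosphatases were followed in classically activated bone marrow-derived macrophages (BM-Mɸs) by bulk RNA sequencing. The members were chosen by name and comprised *Dusp1*, *Dusp2*, *Dusp3*, *Dusp4*, *Dusp5*, *Dusp6*, *Dusp7*, *Dusp8*, *Dusp10* and *Dusp16*, which are 10 of the 22243 genes with a value. Levels are in TPM, a transcript abundance scaled for transcript length and library size, and were summed per gene. The test of genotype was limited to genes whose 12 libraries averaged 1 TPM or more, which 8780 genes and 9 members did. *Dusp8* fell below this level and is described by its values alone.

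BM-Mɸs were grown from the bone marrow of mice with a C57Bl/6 strain background, whose age is not on the labels. One group, ErbB4myeKO, carried floxed *Erbb4* alleles and LysMCre, a Cre recombinase driven from the lysozyme 2 (*Lyz2*) locus that acts in myeloid cells. The control group, ErbB4FF, carried the same floxed alleles without Cre. Each of 6 litters gave 1 mouse to each group, so the 12 libraries form 6 pairs of littermates. All 12 cultures were exposed to IFN-γ (100 U/mL, 16 h) followed by LPS (100 ng/mL, 6 h), and no resting culture was compared here. Libraries are named by their deposited label and litter number throughout.

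MAP kinases (ERK, JNK and p38) carry the signal of LPS to cytokine genes when a threonine and a tyrosine in their activation loop are phosphorylated. Dual-specificity MAP kinase phosphatases remove both phosphates and so switch the kinases off. Several of them are themselves immediate early genes that MAP kinase signaling induces, which makes them negative feedback regulators. In macrophages, *Dusp1* is the best known of these, as a brake on p38 and JNK that limits the output of cytokines after LPS.

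Litters 3, 5 and 6 each stood apart from the others in some values. *Erbb4*, the targeted gene, stayed below 1 TPM in every library and so was not tested. It lay at 0.280 to 0.852 TPM in libraries labelled ErbB4myeKO and 0.372 to 0.716 TPM in those labelled ErbB4FF, and was higher in the former in 4 of 6 litters. *Lyz2*, the gene into which this Cre is inserted, was lower in the library labelled ErbB4myeKO in litters 1 to 5, at 0.434 to 0.570 of its littermate. In litter 6 it was 2.70 times higher (7997 against 2964 TPM), and *Erbb4* was 2.07 times higher in the same library. In the same litter *Dusp1* (log2 ratio -0.29), *Tnf* (0.10) and *Fcgr1* (-0.70) had the direction they had in the other 5 litters. *Dusp7* (0.47), the macrophage marker *Itgam* (0.24) and the phosphatase gene *Ssh1* (0.05) were higher there and lower in the other 5. All of these genes were named after their values were seen. Whether the 2 labels of litter 6 are exchanged was not tested, and the members and the genes with 1 direction in all litters are also given without it. Both libraries of litter 5 had the largest share of their total TPM in the deposited transcripts (71.4% and 74.7%, against 59.0 to 64.9% elsewhere). Both libraries of litter 3 had the fewest genes above 0 (10214 and 10910, against 11645 to 12985). The 8 macrophage markers, which include *Lyz2* itself, summed to 8417 to 12521 TPM in libraries labelled ErbB4myeKO and 7179 to 15964 TPM in those labelled ErbB4FF. The 7 markers without *Lyz2*, among them *Adgre1*, *Csf1r* and *Cd68*, summed to 2602 to 6223 and 2708 to 7347 TPM. Among other cell types, 12 neutrophil markers summed to 41.3 to 375 and 42.5 to 186 TPM in these groups, 10 dendritic cell markers to 12.9 to 35.9 and 7.52 to 28.2 TPM, 8 stromal markers to 9.28 to 105 and 16.1 to 99.3 TPM, 10 lymphocyte markers to 0.447 to 3.91 and 0.603 to 3.05 TPM, and 8 erythroid markers to at most 0.467 and 1.11 TPM. The lymphocyte genes *Cd3e* and *Ms4a1* and the neutrophil gene *Retnlg* stayed under 0.1 TPM in every library. Other genes of these lists were higher. In libraries labelled ErbB4myeKO the neutrophil genes *S100a8* and *S100a9* reached 253 and 103 TPM, and the lymphocyte gene *Cd4* reached 2.74 TPM. The part of these other cells in the results below was not tested.

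The family was dominated by 2 nuclear phosphatases. Summed over the 10 members, the libraries held 322 to 784 TPM, with a mean of 577 ± 148 TPM (SD, n = 12). *Dusp1* and *Dusp2*, the phosphatase first found in activated T cells, together made up 70.1 to 84.2% of this sum. *Dusp1* had a median of 228 TPM and ranked 433rd by mean level among the 8780 genes tested. *Dusp2* had a median of 210.0 TPM and ranked 493rd. The order of these 2 genes was not fixed, as *Dusp1* was the higher in 7 of 12 libraries and the mean log2 difference of 0.20 was smaller than its SD of 0.57.

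**Figure D1:**
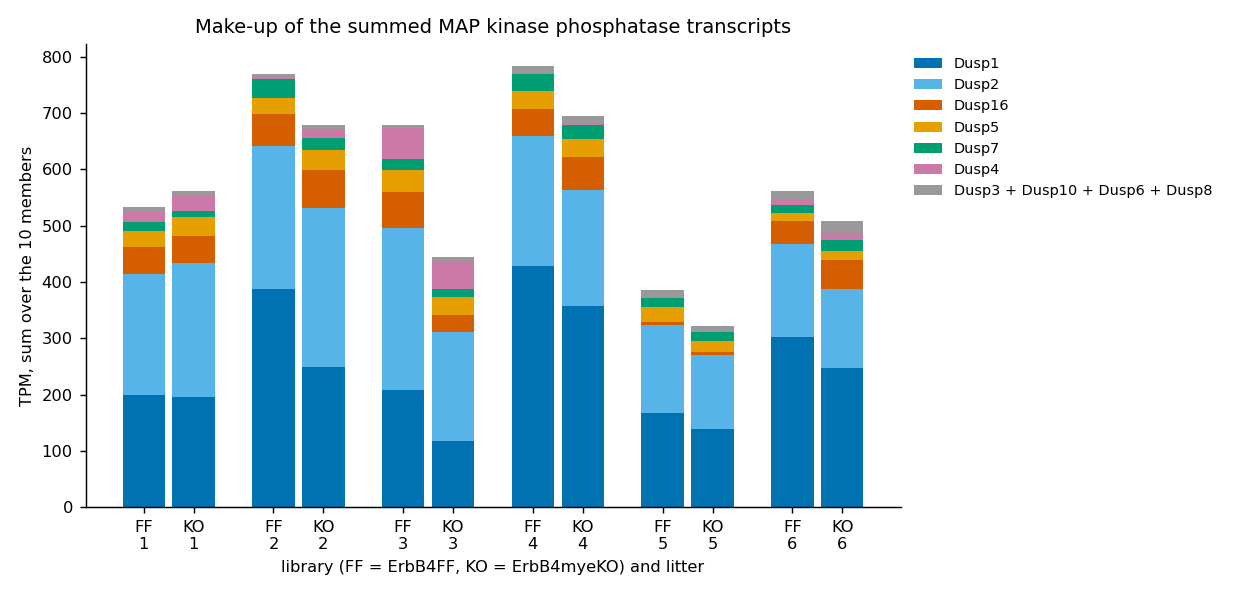
Stacked bars give the TPM of each member in each of the 12 libraries, on a linear axis from 0, with littermates side by side (FF, ErbB4FF; KO, ErbB4myeKO; the number is the litter). *Dusp1* and *Dusp2* make up most of every bar, the tallest bar is ErbB4FF of litter 4 at 784 TPM, and the shortest is ErbB4myeKO of litter 5 at 322 TPM.

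Behind this pair came a group at a moderate level. The median was 47.6 TPM for *Dusp16*, a phosphatase that prefers JNK, 30.3 TPM for *Dusp5*, a nuclear phosphatase specific for ERK, and 18.2 TPM for *Dusp7*, a cytoplasmic phosphatase for ERK. *Dusp2* exceeded *Dusp16* in 12 of 12 libraries, by a log2 of 2.52 ± 1.00 (SD). *Dusp16*, *Dusp5*, *Dusp7* and then *Dusp4* and *Dusp3* did not differ from their neighbour in this order by more than 1 SD over the libraries. *Dusp4*, a nuclear phosphatase closely related to *Dusp1*, had a median of 11.4 TPM and *Dusp3*, a small phosphatase without a domain for binding MAP kinases, had a median of 5.07 TPM. *Dusp10*, a phosphatase for JNK and p38, at 2.09 TPM, *Dusp6*, a cytoplasmic phosphatase for ERK, at 1.79 TPM, and *Dusp8*, which acts on JNK and p38, at 0.640 TPM closed the order. *Dusp3* lay above *Dusp10* in 10 of 12 libraries and *Dusp6* above *Dusp8* in 11, both by more than 1 SD. By role, the 4 inducible nuclear phosphatases held 82.0 to 90.6% of the summed TPM, the JNK and p38 phosphatases 2.42 to 10.5%, the cytoplasmic ERK phosphatases 2.55 to 5.31%, and *Dusp3* at most 2.81%.

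Promoters are shown for 4 members, because inducible phosphatases are known for elements close to their start sites: the 2 abundant genes *Dusp1* and *Dusp2*, and the others that held a searched motif, *Dusp5* and *Dusp8*. The sequences are from RefSeq on GRCm38.p6 and run 5′ to 3′ from 250 bases before the annotated start to 50 bases after it. *Dusp1* is at chr17:26508423-26508722 on the minus strand, *Dusp2* at chr2:127335909-127336208 on the plus strand, *Dusp5* at chr19:53528895-53529194 on the plus strand and *Dusp8* at chr7:142095235-142095534 on the minus strand. Capitals mark a full cAMP response element (TGACGTCA) in *Dusp1* and *Dusp8* and 2 adjoining CArG boxes, the element that serum response factor binds, in *Dusp5*.
Dusp1: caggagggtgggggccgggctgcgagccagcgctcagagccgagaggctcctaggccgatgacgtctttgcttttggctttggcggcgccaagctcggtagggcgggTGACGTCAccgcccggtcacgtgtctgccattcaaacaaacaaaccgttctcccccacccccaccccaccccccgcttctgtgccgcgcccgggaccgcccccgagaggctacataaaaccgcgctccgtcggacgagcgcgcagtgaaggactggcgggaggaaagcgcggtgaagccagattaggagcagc
Dusp2: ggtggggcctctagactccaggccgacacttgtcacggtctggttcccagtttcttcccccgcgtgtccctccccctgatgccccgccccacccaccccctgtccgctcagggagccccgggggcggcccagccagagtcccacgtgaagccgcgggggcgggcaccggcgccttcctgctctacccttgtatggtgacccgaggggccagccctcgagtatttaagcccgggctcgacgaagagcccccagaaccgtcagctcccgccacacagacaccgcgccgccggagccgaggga
Dusp5: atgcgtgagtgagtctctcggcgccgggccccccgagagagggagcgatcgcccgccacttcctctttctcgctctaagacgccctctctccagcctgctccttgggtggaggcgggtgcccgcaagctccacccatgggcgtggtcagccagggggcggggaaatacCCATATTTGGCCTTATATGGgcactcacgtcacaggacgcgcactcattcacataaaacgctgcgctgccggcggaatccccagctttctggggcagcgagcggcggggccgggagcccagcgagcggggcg
Dusp8: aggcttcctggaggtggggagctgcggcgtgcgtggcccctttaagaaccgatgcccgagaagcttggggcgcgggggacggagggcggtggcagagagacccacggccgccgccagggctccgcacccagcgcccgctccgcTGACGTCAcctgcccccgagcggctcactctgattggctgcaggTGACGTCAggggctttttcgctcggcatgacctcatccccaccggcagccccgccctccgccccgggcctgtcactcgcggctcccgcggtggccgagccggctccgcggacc
The cAMP response element began 143 bases before the start of *Dusp1*, and 107 and 63 bases before the start of *Dusp8*. It was present in 1.79% of 32851 promoters of the same length, searched on both strands. The CArG boxes began 82 and 72 bases before the start of *Dusp5*, and 1.63% of promoters held such a box. AP-1 sites (TGANTCA, 7.81% of promoters) and NF-kB sites (8.46%) were in none of the 9 member promoters in the table. A match describes these letters alone.

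The comparison of genotypes asked whether loss of ErbB4 in myeloid cells altered the level of these phosphatases after activation. *Dusp1* was lower in the library labelled ErbB4myeKO in all 6 litters, by 23.5% on average. The other members went up in some litters and down in others, *Dusp7* and *Dusp6* in 1 litter each against the other 5. No member passed limma's test after Benjamini-Hochberg adjustment over 8780 genes, and neither did any other gene (0% of genes). At an unadjusted p under 0.05, 1 of 9 members (*Dusp1*) passed, beside 8.21% of all genes (4.38% passed and were lower). The same direction in all 6 litters was seen for 1 of 9 members, again *Dusp1*, beside 4.82% of all genes, and 2.31% of genes were lower in all 6. The mean difference was above 0 for 5 members and below 0 for 4. With 9 members, a count of 1 is near what these shares of all genes give. In bulk samples, fewer cells of a type and less RNA per cell cannot be told apart.

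**Figure D2:**
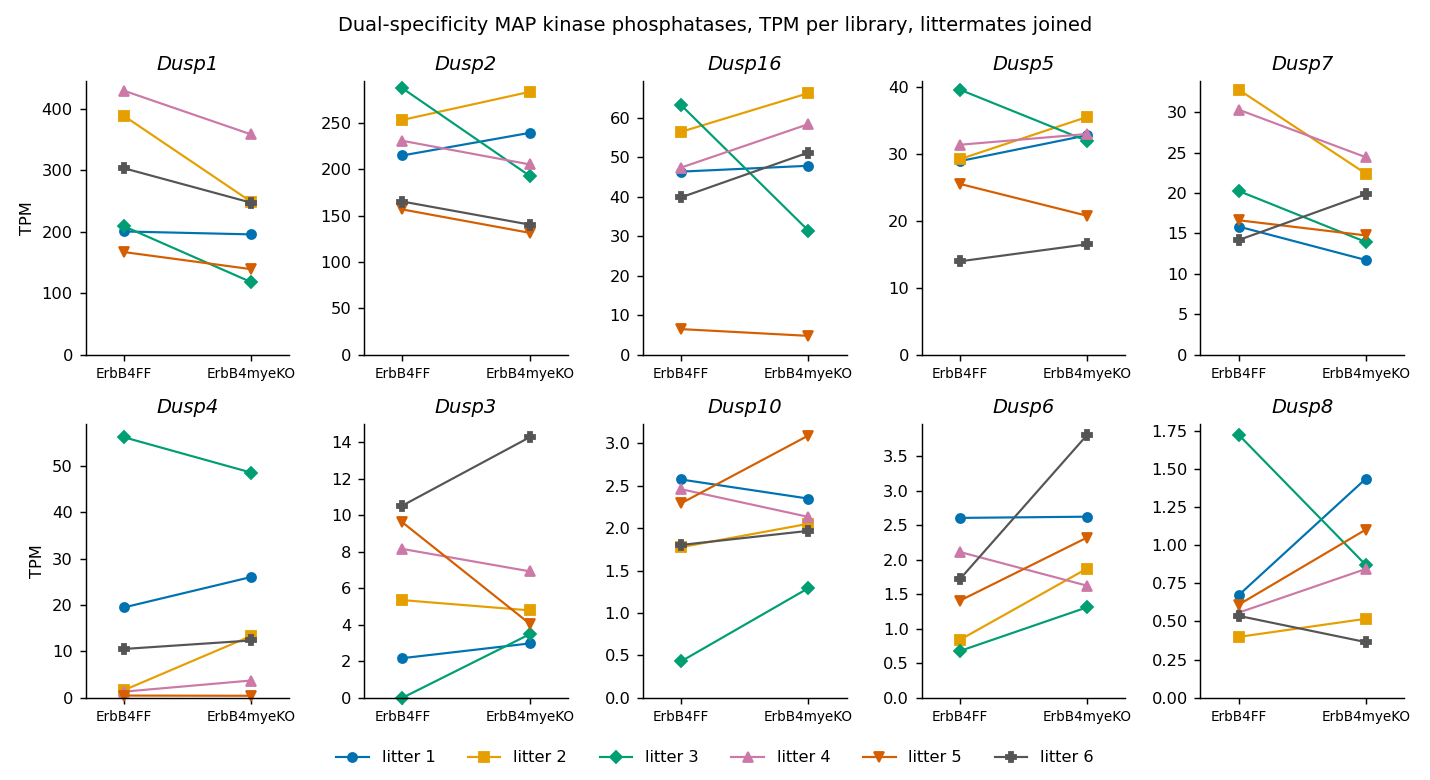
Each panel shows 1 member, with TPM on a linear axis from 0 and a line joining the ErbB4FF and the ErbB4myeKO library of each litter. For *Dusp1* all 6 lines fall from ErbB4FF to ErbB4myeKO; for *Dusp7* all fall but that of litter 6, *Dusp16* of litter 5 lies far below the other litters, and *Dusp4* of litter 5 is near 0.

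*Dusp1*, at chr17:26505590-26508519 (GRCm38, minus strand, 4 exons), encodes the nuclear phosphatase that inactivates p38 and JNK. In libraries labelled ErbB4myeKO the lowest, median and highest values were 118, 221 and 358 TPM, and in those labelled ErbB4FF they were 167, 256 and 429 TPM. The 2 groups overlapped widely and litters differed among themselves, and the difference shows only within litters. Within litters, the log2 ratio was -0.03 in litter 1, -0.64 in litter 2, -0.82 in litter 3, -0.26 in litters 4 and 5 and -0.29 in litter 6, a mean of -0.39 ± 0.29 (SD, n = 6). Thus 2 litters, 2 and 3, carried the larger falls, and in litter 1 the littermates were nearly equal at 195 and 200.2 TPM. The exact permutation test over the 64 swaps within litters gave p = 0.0312 (two-sided), the smallest that 6 litters allow. With the labels of litter 6 exchanged, *Dusp1* would be lower in 5 of 6 litters. In limma the difference was -0.39 (SE 0.11, 95% interval -0.63 to -0.14, adjusted p = 0.603 with Benjamini-Hochberg adjustment), and *Dusp1* ranked 55th of 8780 genes by p. Without litter 6 it was -0.40, lower in 5 of 5 litters (limma adjusted p = 0.767), and without litters 3 and 5 it was -0.31 (limma adjusted p = 0.472). Its unadjusted p stayed under 0.05 in both, and not in a fit that ignored the litters.

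The ratio of *Dusp1* to *Dusp2*, which does not depend on the total of a library, was computed after the values were seen. It was 0.612 to 1.76 in libraries labelled ErbB4myeKO and 0.727 to 1.86 in those labelled ErbB4FF. Within litters its log2 was lower in 6 of 6, by 0.01 to 0.81, with a mean of -0.23 ± 0.29 (SD). Litter 2 alone reached 0.81, and in litters 5 and 6 the difference was at most 0.06. The sum over the family was lower in 5 of 6 litters, by a mean log2 of -0.22 ± 0.22 (SD), and *Dusp1* alone made up 26.6 to 54.8% of it.

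*Dusp2*, at chr2:127336159-127338376 (GRCm38, plus strand), ranged from 131 to 283 TPM (median 199) in libraries labelled ErbB4myeKO and from 157 to 287 TPM (median 223) in those labelled ErbB4FF. It was higher in 2 litters and lower in 4, with a mean log2 ratio of -0.15 ± 0.28 (SD) and a limma interval of -0.39 to 0.09 (adjusted p = 0.668). The mean was -0.07 without litter 3 and -0.02 without litters 3 and 5. *Dusp5*, at chr19:53529109-53542431 (plus strand), had medians of 32.3 and 29.0 TPM in the 2 groups. Its mean log2 ratio was 0.03 ± 0.26 (SD), with an interval of -0.22 to 0.27 (limma adjusted p = 0.943). These intervals leave room for changes of about the size seen for *Dusp1* in *Dusp2*, and for smaller ones in *Dusp5*.

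*Dusp4*, at chr8:34807297-34819894 (GRCm38, plus strand), differed widely between litters. Its lowest, median and highest values were 0.439, 12.8 and 48.5 TPM in libraries labelled ErbB4myeKO and 0.484, 6.07 and 56.2 TPM in those labelled ErbB4FF. The mean log2 ratio of 0.71 (SD 1.10) rested on litter 2, where the labelled knockout held 13.3 TPM and its littermate 1.62 TPM (log2 ratio 2.70), and on litter 4, with 3.72 and 1.32 TPM. In litters 1, 3, 5 and 6 the ratio lay between -0.21 and 0.41. The exact permutation test gave p = 0.156 and limma an adjusted p = 0.618, and the difference was 0.31 without litter 2.

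Of the cytoplasmic ERK phosphatases, *Dusp7*, at chr9:106368632-106375724 (GRCm38, plus strand), was lower in 5 of 6 litters. Its lowest, median and highest values were 11.7, 17.3 and 24.4 TPM in libraries labelled ErbB4myeKO and 14.2, 18.5 and 32.8 TPM in those labelled ErbB4FF. Litters 1 to 5 had log2 ratios between -0.54 and -0.17, and litter 6, in which *Lyz2* also went the other way, had 0.47. Over 6 litters the mean was -0.25 ± 0.38 (SD), with an exact permutation p = 0.156 (limma adjusted p = 0.641). Without litter 6 the difference was -0.39 (SE 0.09, 95% interval -0.61 to -0.17, limma adjusted p = 0.767), lower in 5 of 5 litters, where the exact permutation test cannot go below p = 0.0625 and gave that value. Without litter 6, then, 2 of 9 members passed an unadjusted p of 0.05, beside 5.82% of all genes, and the same 2 had 1 direction in all 5 litters, beside 8.01% of all genes (4.1% lower in all 5). Because litter 6 is the only litter in which *Dusp7* was above 0, leaving it out fixes the direction of this gene. For *Dusp7* these values are a description and no test. The other members without litter 6 were at -0.14 (*Dusp2*), 0.81 (*Dusp4*), -0.01 (*Dusp5*, which changed sign), 0.34 (*Dusp6*), 0.24 (*Dusp10*), -0.17 (*Dusp16*) and 0.37 (*Dusp3*), with limma adjusted p from 0.767 to 0.980.

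*Dusp6*, at chr10:99263231-99267488 (GRCm38, plus strand), is a classical target of ERK signaling and was scarce in these cells. It had 1.31, 2.10 and 3.81 TPM as the lowest, median and highest values in libraries labelled ErbB4myeKO and 0.678, 1.56 and 2.61 TPM in those labelled ErbB4FF. It was higher in the labelled knockout in 5 of 6 litters, lower in litter 4 (log2 ratio -0.30), and the same to within 0.01 in litter 1. On the log2 scale its ratio averaged 0.45 ± 0.49 (SD), with a limma interval of -0.04 to 0.93 (exact permutation p = 0.0938, limma adjusted p = 0.603). On average over the libraries the authors' deposited mean corresponds to 29.4 normalized estimated counts, so counting noise is not small for this gene.

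**Figure D3:**
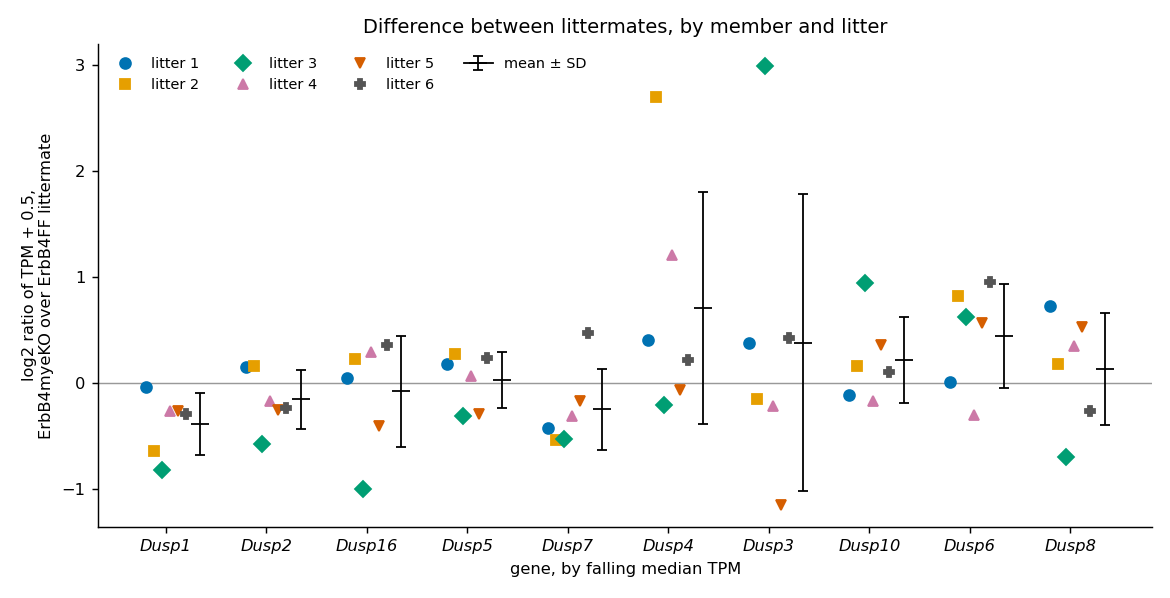
Points give the log2 ratio of TPM + 0.5 of the ErbB4myeKO over the ErbB4FF library of a litter, for each member by falling median level, and black bars give the mean ± SD over 6 litters. All 6 points of *Dusp1* lie below 0 (mean -0.39), and the widest spreads are those of *Dusp3* (litter 3 at 2.99) and *Dusp4* (litter 2 at 2.70).

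The JNK and p38 phosphatases showed no steady difference. *Dusp16*, at chr6:134715473-134792625 (GRCm38, minus strand, 7 exons), ranged from 4.75 to 66.2 TPM (median 49.5) in libraries labelled ErbB4myeKO and from 6.46 to 63.2 TPM (median 46.8) in those labelled ErbB4FF. Its log2 ratio was above 0 in litters 1, 2, 4 and 6, at 0.04 to 0.36, and below 0 in litters 3 (-0.997) and 5 (-0.41). The mean was -0.08 ± 0.53 (SD, limma adjusted p = 0.902). It was 0.23 without litters 3 and 5 (limma adjusted p = 0.472). In those 4 litters 3 of 9 members (*Dusp1*, lower, and *Dusp4* and *Dusp16*, higher) passed an unadjusted p of 0.05, beside 10.5% of all genes, and 4 of 9 (these and *Dusp5*) had 1 direction throughout, beside 21.1% of all genes. These counts are a description and no test, because litters 3 and 5, left out after the data were seen, are the ones in which *Dusp4*, *Dusp5* and *Dusp16* were below 0. *Dusp10*, at chr1:184034381-184075636 (plus strand), ranged from 1.29 to 3.09 and from 0.430 to 2.57 TPM in the 2 groups, with a mean log2 ratio of 0.22 ± 0.41 (SD, limma adjusted p = 0.725). Only litter 3, in which both libraries were low, reached 0.95, and the other litters lay between -0.17 and 0.36. *Dusp8*, at chr7:142079490-142095272 (minus strand), stayed between 0.365 and 1.72 TPM in the 12 libraries. It was higher in 4 litters and lower in 2, and was not tested across genes.

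*Dusp3*, at chr11:101971143-101984799 (GRCm38, minus strand), had a median of 4.42 TPM in libraries labelled ErbB4myeKO (2.98 to 14.3) and 6.75 TPM in those labelled ErbB4FF. The ErbB4FF library of litter 3 was listed at 2.63e-06 TPM, and the next lowest of that group held 2.17 TPM. Because of this 1 library the log2 ratio of litter 3 was 2.99, and the mean of 0.38 ± 1.40 (SD, limma adjusted p = 0.815) became -0.14 without litter 3. With a pseudocount of 0.1 TPM in place of 0.5 the mean was 0.74, and with 1 TPM it was 0.25. A second principal transcript of *Dusp3* was at 0 in every library, and 99.5% of the 31-base words of the first occur in other transcripts of the gene, among which kallisto must divide the reads. Whether this division set the value near 0 was not tested.

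Several members varied between litters, and how many did depended on litter 5. In the same limma fit, 6 of 9 members (*Dusp1*, *Dusp2*, *Dusp4*, *Dusp5*, *Dusp7* and *Dusp16*) varied between litters at an adjusted p under 0.05, beside 44.9% of all genes, a test added after the data were seen. Without litter 5 it was 3 of 9 (*Dusp1*, *Dusp4* and *Dusp5*), beside 11.5% of all genes, and without litter 6 it was 4 of 9, beside 38.9% of all genes. Without litters 3 and 5 it was 2 of 9 (*Dusp3* and *Dusp5*), beside 3.63% of all genes. With all litters the limma adjusted p ran from 0.00144 for *Dusp16* to 0.0398 for *Dusp7*. For *Dusp1* the litter means ran from 153 TPM in litter 5 to 394 TPM in litter 4, which is 2.58-fold. The SD of the litter means on the log2 scale was 0.56 for *Dusp1*, and the SD of its ratios within litters was 0.29. Across all genes tested, the medians of these SDs were 0.41 and 0.34.

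**Figure D4:**
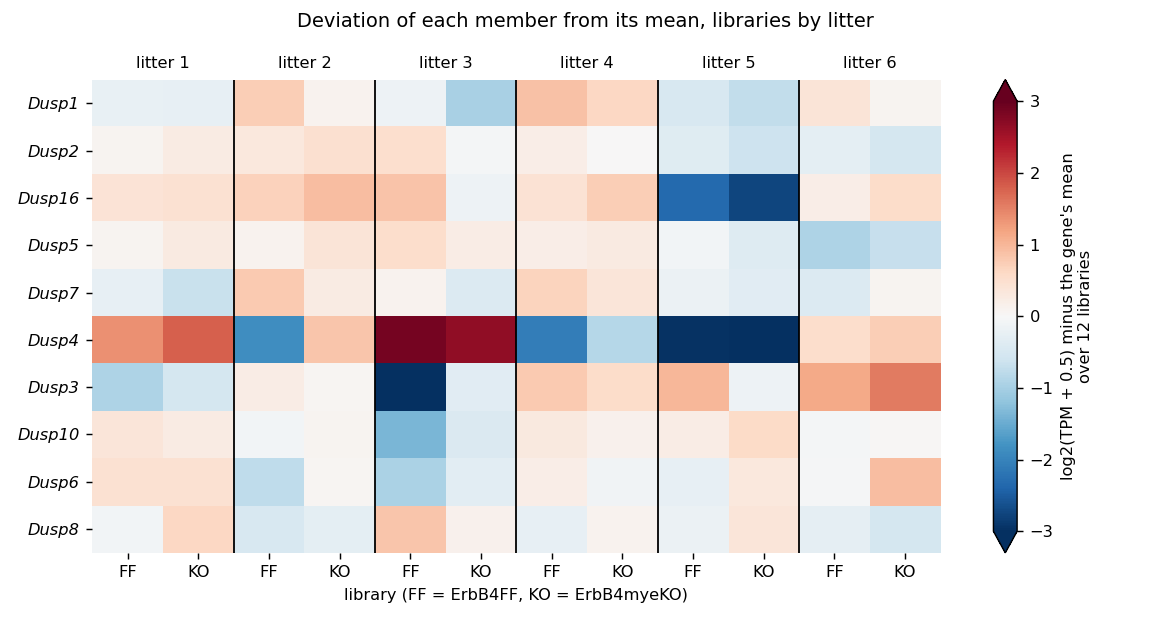
Colors give log2(TPM + 0.5) minus the mean of the gene over the 12 libraries, with members as lines of cells and libraries as columns, littermates side by side, and the scale ends at ± 3. *Dusp4* is high in litters 1 and 3 and lowest in litter 5, *Dusp16* is low in both libraries of litter 5, and littermates mostly share their color.

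The members did not share 1 litter pattern. *Dusp1* and *Dusp7* were both highest in litters 2 and 4, at litter means of 319 and 394 TPM for *Dusp1* and 27.6 and 27.4 TPM for *Dusp7*. *Dusp4*, *Dusp5* and the scarce *Dusp8* were instead highest in litter 3, while *Dusp6* and *Dusp10* were lowest there. *Dusp2* was lowest in litters 5 and 6, at 144 and 153 TPM, and *Dusp5* was lowest in litter 6, at 15.2 TPM against 23.1 to 35.8 TPM elsewhere.

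*Dusp4* had the widest range of litter means, from 0.462 TPM in litter 5 to 52.4 TPM in litter 3, or 113-fold. Its SD of 2.10 on the log2 scale over the 12 libraries exceeded that of 99.2% of the 2608 genes within 2-fold of its mean level. Littermates were alike in litters 1, 3, 5 and 6, so the spread lay mainly between litters. The genes whose levels followed *Dusp4* most closely over the 12 libraries were *Gspt1*, a translation termination factor (Pearson r = 0.97, Spearman rho = 0.94), *Tlr2*, the receptor for bacterial lipoproteins (r = 0.97, rho = 0.96), and *Itgb8*, an integrin subunit (r = 0.97, rho = 0.97). *Itgb8* ran from 0.275 to 42.6 TPM and *Tlr2* from 28.2 to 134 TPM. For *Dusp1* they were *Tbc1d9b* (r = 0.94, rho = 0.94), *Rhou*, a small GTPase (r = 0.94, rho = 0.94), and *Pik3r5*, a regulatory subunit of phosphoinositide 3-kinase γ (r = 0.93, rho = 0.96). For *Dusp3* they were *Hexim2*, *Med19* and *Fto*, with r of 0.92, 0.92 and 0.90 and rho of 0.76, 0.83 and 0.78. *Dusp3* was listed at 2.63e-06 TPM in the ErbB4FF library of litter 3, far below the rest, and the weight of that library in r was not tested. The correlations printed are the highest of 8780, over 12 libraries that share 6 litters, and carry no test.

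*Dusp16* set litter 5 apart. Its 2 libraries held 4.75 and 6.46 TPM, against 31.4 to 66.2 TPM in the other 10, a 10.9-fold difference between the highest and lowest litter mean. Litter 5 had 70 genes at least 4-fold below all other libraries in both of its own, and *Dusp16* was the only member among them. Litter 3 had 19 such genes, litter 1 had 1 and the other litters none. The transcript of *Dusp16* is long, at 5104 bases, and the 70 genes had a median length of 5040.5 bases against 2690 for all genes tested. The 1297 genes with transcripts at least as long as that of *Dusp16* were lower in litter 5 than in the other litters by a median log2 of -0.72, whereas all genes had a median of 0.06. In the other 5 litters the same long genes lay between -0.10 and 0.28. In addition, 97.0% of the 31-base words of the deposited *Dusp16* transcript occur in other transcripts of the gene, and the part of either feature in its low level was not tested.

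In the remaining MAP kinase pathway, differences between genotypes went both ways. The pathway was read as 7 lists with 68 genes, of which 53 passed the level filter. At an unadjusted p under 0.05, 4 of the 53 passed (7.55%, beside 8.21% of all genes), 1 higher and 3 lower in libraries labelled ErbB4myeKO, and none passed after adjustment. The median log2 difference was -0.00, as it was for all genes (-0.00). Single differences were often imprecise and ran from -0.69 for *Dusp12* (SE 0.60) to 0.84 for *Map3k7* (SE 0.74), the ends of the range, named after their values were seen.

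Among upstream kinases and adaptors, 1 of 15 genes tested was higher and 2 were lower at this unadjusted threshold. *Tnip2*, an adaptor that holds the kinase encoded by *Map3k8*, had medians of 16.2 TPM in libraries labelled ErbB4myeKO and 20.1 TPM in those labelled ErbB4FF. It was lower in 6 of 6 litters, by a log2 of -0.32 ± 0.22 (SD) (exact permutation p = 0.0312, limma adjusted p = 0.603). *Map3k5*, a kinase upstream of JNK and p38, was higher in 5 of 6 litters, with medians of 5.45 and 2.10 TPM and a log2 difference of 0.61 ± 0.60 (SD) (exact permutation p = 0.0625, limma adjusted p = 0.603). *Araf*, a RAF family kinase named after its value was seen, was lower in 5 of 6 litters at -0.26 (exact permutation p = 0.0625, limma adjusted p = 0.603).

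None of the 6 MAP kinases tested, 6 MAP kinase kinases, 9 MAP kinase-activated kinases, 5 Sprouty and Spred inhibitors and 3 other MAP kinase phosphatases reached an unadjusted p under 0.05. The smallest p in each of these lists belonged to *Mapk9*, which encodes a JNK, at a log2 difference of -0.30, *Map2k4*, a kinase that activates JNK, at -0.15, *Mapkapk2*, the p38-activated kinase that stabilizes cytokine mRNAs, at -0.10, *Spry1*, a feedback inhibitor of ERK signaling, at 0.42, and *Ppm1b*, a serine and threonine phosphatase, at 0.06. Next in these lists came *Mapk11* (-0.20), *Map2k3* (0.11), *Rps6ka3* (-0.25), *Spred1* (-0.09) and *Ppm1d* (-0.10). Of 9 other dual-specificity phosphatases tested, *Ssh1*, which acts on cofilin, was lower in 5 of 6 litters at -0.25 (exact permutation p = 0.0625, limma adjusted p = 0.603), and *Dusp28* was at -0.27. The deposited transcript of *Mapk14*, which encodes the main p38 kinase, was at most 0.935 TPM in any library and was not tested, a value of that transcript alone.

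**Figure D5:**
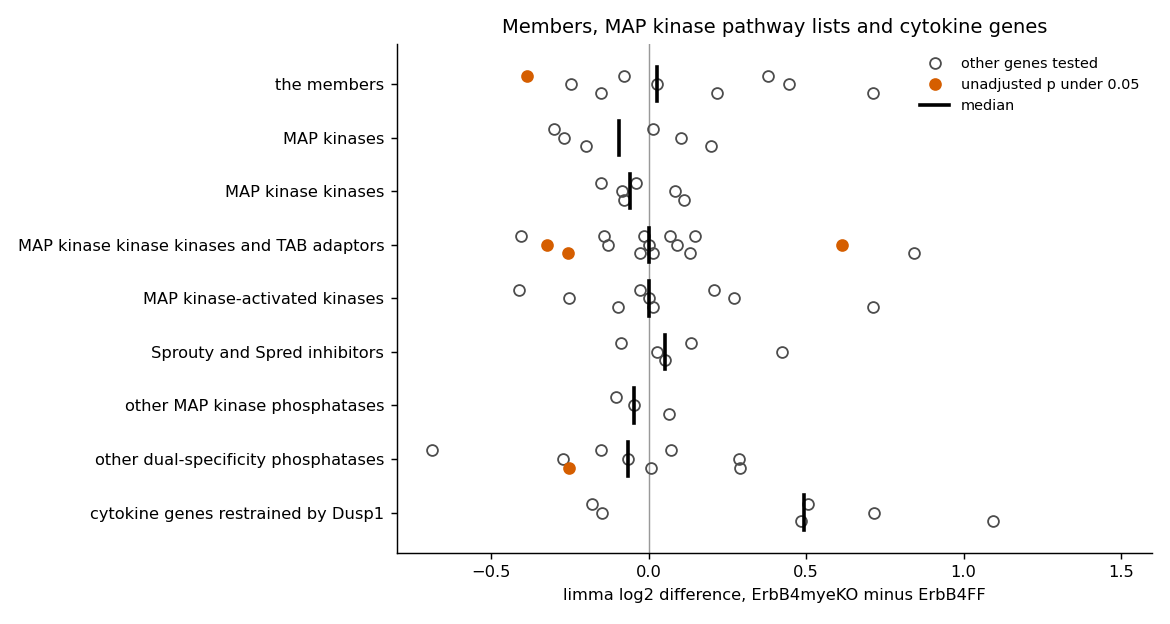
Each point is 1 gene that passed the level filter, placed by its limma log2 difference (ErbB4myeKO minus ErbB4FF), with filled points at an unadjusted p under 0.05 and vertical bars at the median of each list. *Dusp1* is the filled point of the members at -0.39, *Map3k5* is the one at 0.61, and none of the 6 cytokine genes is filled.

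Cytokine genes that *Dusp1* is known to restrain after LPS were read beside it. Of 6 tested, 4 were higher and 2 lower in libraries labelled ErbB4myeKO, none at an unadjusted p under 0.05 in limma, with a median log2 difference of 0.49. *Tnf* had medians of 2224 and 1361 TPM and was higher in 6 of 6 litters, by a log2 of 0.51 ± 0.68 (SD) (exact permutation p = 0.0312, limma adjusted p = 0.603). *Cxcl2*, a neutrophil chemokine, had medians of 2584 and 1091 TPM and was higher in 5 of 6 litters, by 1.09 ± 1.42 (SD) (exact permutation p = 0.0625, limma adjusted p = 0.603). The 2 that were lower, each in 4 of 6 litters, were *Il10*, an anti-inflammatory cytokine (log2 difference -0.18, limma adjusted p = 0.663), and the chemokine *Ccl4* (-0.15, limma adjusted p = 0.639). Of 8 macrophage markers, 4 were higher and 4 lower. *Fcgr1* was lower in 6 of 6 litters (log2 difference -0.86, limma adjusted p = 0.603), *Mertk* was higher in 6 of 6 (0.14, limma adjusted p = 0.641), and *Adgre1* and *Csf1r* were at 0.01 and 0.05. Of 5 neutrophil markers tested, 3 were higher and 2 lower. *Camp* was higher in 6 of 6 litters (0.45, limma adjusted p = 0.603), whereas *Ngp* was at -0.36 and *S100a9* at -0.24, each higher in 3 of 6. Of 3 dendritic cell markers tested, *Xcr1* lay above its littermate in 5 of 6 litters (log2 difference 0.63, exact permutation p = 0.0938, limma adjusted p = 0.603) and *Batf3* lower in 6 of 6 (-0.43, exact permutation p = 0.0312, limma adjusted p = 0.603). All 6 stromal markers tested had a log2 difference above 0 (0.03 to 0.32, limma adjusted p from 0.617 to 0.985), none in more than 4 of 6 litters, and the 1 lymphocyte marker tested was at -0.35. Of the stromal markers, *Col1a1* (-0.02), *Col1a2* (-0.11), *Col3a1* (-0.18) and *Cxcl12* (-0.01) were below 0 without litter 6, and *Dcn* (0.24) and *Pdgfrb* (0.39) stayed above 0. Without litter 6 the genes of the lists with 1 direction in all 6 litters were at 0.59 (*Tnf*), -0.36 (*Tnip2*), -0.89 (*Fcgr1*), 0.51 (*Camp*), 0.07 (*Mertk*) and -0.33 (*Batf3*), with limma adjusted p from 0.767 to 0.823. *Lyz2* (-0.99, limma adjusted p = 0.0556), *Itgam* (-0.29) and *Ssh1* (-0.31, both limma adjusted p = 0.767) were then also lower in all 5 litters kept. *S100a9* moved to -0.53 and *Map3k7* to 0.49. The part of cell composition in these values and in *Dusp1* was not tested.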

How the data were processed

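The series holds 12 bulk RNA libraries of BM-Mɸs after M1 activation, 6 per genotype, with unpaired reads of 75 bases. The values deposited by the authors are TPM from kallisto for the principal transcripts of APPRIS, which hold 59.0 to 74.7% of the total TPM of a library. The transcriptome release and the kallisto version are not given in the sources used here, and mm10 is the build in the submitters' processing notes. A deposited column holds the authors' natural log of sleuth's estimated counts, averaged over samples, and was used, after exponentiation, only as a guide to depth, since read totals per library were not analysed here. The table also holds the authors' test statistics, p-values, q-values and log2 ratios of genotype from sleuth, which were not used.

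Repeated transcript lines were dropped (28808 transcripts of 29213 lines) and TPM were summed per gene. Group and litter came from the sample labels. In R 4.3.3, limma 3.58.1 (lmFit and a trended eBayes) was applied to log2(TPM + 0.5) with terms for genotype and litter, keeping genes that averaged 1 TPM or more, and Benjamini-Hochberg adjustment covered 8780 genes. A log2 difference on this scale understates the change of low genes. For single genes an exact permutation test enumerated the 64 swaps of littermates (two-sided). The fit was tested on simulated data. The study adjusted its test for sex as well, which is not on the labels and was replaced, as an alternative only, by a score of 4 Y-linked genes. Littermates share a litter by the design, and the correlation of their deviations from the group means was 0.27 (litter 2) to 0.77 (litter 5). The highest correlation of an ErbB4myeKO library with an ErbB4FF library of another litter was 0.21 in litter 2 and 0.38, against 0.41 with its own littermate, in litter 4. Each group is 1 culture per mouse, so the p-values of genotype rest on how far the difference between littermates varied over litters. Transcript positions are from GENCODE M21 (GRCm38). Other steps used Python 3.11.15 with pandas 2.3.3, numpy 2.4.6 and, for plots, matplotlib 3.10.9.

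Alternatives were no block, the Y-linked score, pseudocounts of 0.1 and 1, rescaling by median ratios, a filter at 5 TPM or none, no trend, the top transcript alone and each litter left out. Leaving out litters 3 and 5 together was added after the data were seen. The members and gene lists were chosen with earlier results of these data known. All members are described. Of each pathway list at most 2 genes with the smallest limma p are named, and 3 genes of like pattern for *Dusp1* and the 2 members with the largest SD over libraries. Other genes named were chosen after their values were seen.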

Additional observations from a re-analysis of the deposited data

Results flagged for a closer look

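Values that stood apart within a group of 6 were sought in 30 groups, the 10 members in each genotype and in their ratios within litters, by Dixon's gap to the nearest other value over the range. Chance alone marks about 1 in 20 groups, and 5 of 30 were marked. For *Dusp16*, litter 5 lay below the other litters in both genotypes, at log2(TPM + 0.5) of 2.39 in the ErbB4myeKO library and 2.80 in the ErbB4FF library. For *Dusp8* and *Dusp10*, the ErbB4FF library of litter 3 stood apart, at 1.15 above and -0.11 below the others on the same scale. For *Dusp7*, the log2 ratio of litter 6, 0.47, lay above those of the other 5 litters, which were all below 0.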

How the results depend on the processing

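No member reached an adjusted p under 0.05 in any of 142 alternative values (15 or 16 for each of 9 members), 8 of which changed sign. *Dusp1* stayed below 0 in all 16 of its alternatives, from -0.46 to -0.30. The number of members past an unadjusted p of 0.05 was 1 as reported (721 of all genes). It was 0 with no replicate block (75 of all genes), 2 with the Y-linked covariate (*Dusp1* and *Dusp7*, 297 of all genes), 2 without the trend (*Dusp1* and *Dusp6*, 661 of all genes), 1 to 2 with a litter left out (*Dusp6* joined without litter 4, *Dusp7* without litter 6), and 3 without litters 3 and 5 (919 of all genes). With litters 1 to 6 left out in turn, 719, 413, 857, 458, 864 and 506 of all genes passed. Members with 1 direction in all litters numbered 1 to 2 with a litter left out (8.01% of all genes without litter 6). *Dusp6* joined without litter 4 and *Dusp7* without litter 6, each the only litter in which that gene had gone the other way. Without litters 3 and 5 there were 4 such members (21.1% of all genes, with only 4 litters), where the choice of litters fixes the direction of *Dusp4*, *Dusp5* and *Dusp16*. Members that varied between litters numbered 3 to 7 with a litter left out, the 3 without litter 5 (11.5% of all genes, against 38.9 to 46.5% without another litter), and 2 without litters 3 and 5 (3.63% of all genes). *Dusp5* reversed to -0.024 with the Y-linked covariate and ran from -0.023 to 0.094 with a litter left out, *Dusp16* from -0.17 to 0.10 and *Dusp3* from -0.14 to 0.69. Without litters 3 and 5, *Dusp10* was at -0.0032 and *Dusp16* at 0.23. The cause of these changes was not tested. The median log2 difference of all genes stayed between -0.012 and 0.012 in every fit. Without litter 3, 1 gene of the whole table reached an adjusted p of 0.049, and it was no member. The depth per library was not analysed, and with 6 litters the exact test cannot pass below p = 0.0312.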
